A study of Homo sapiens with 6 samples.

Results

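Imprinted genes are expressed mainly from the maternal or from the paternal copy. Of the 10 imprinted genes listed (H19, IGF2, CDKN1C, PEG10, MEST, SNRPN, NDN, GNAS, PEG3 and MEG3), 8 were matched by identifier and gene symbol to a counted transcript, out of 37192 genes in the whole series, and their PRO-seq counts were compared with their RNA-seq counts. IGF2, a growth factor gene, and NDN, a gene of the MAGE family, had no matched transcript and were not analysed here. Counts of reads per transcript do not separate the parental copies, so imprinting itself was not measured.

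The libraries came from K562, a human chronic myelogenous leukemia cell line, and all 6 were drawn from the same source of untreated cells grown in RPMI-1640 with serum. PRO-seq (2 libraries) sequences RNA still held by engaged RNA polymerase and so measures nascent transcription. RNA-seq (4 libraries) was made from total RNA after depletion of rRNA and measures RNA at steady state. No sample represented a second culture, donor or treatment, so every p-value measures only the spread between libraries of 1 cell source, which may be technical.

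Imprinted genes lie in clusters in which a methylated control region, inherited from 1 parent, sets which copy is read. Many clusters pair a protein-coding gene with a long noncoding RNA from the other parental copy, as with IGF2 and H19, KCNQ1 with CDKN1C and KCNQ1OT1, or DLK1 and MEG3. The products limit or favour growth, and include a cell cycle inhibitor (CDKN1C), the alpha subunit of the stimulatory G protein (GNAS) and a spliceosomal Sm protein (SNRPN). Zinc finger proteins such as ZFP57, which binds the methylated hexamer TGCCGC, recruit TRIM28 to keep these regions methylated.

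Counts assigned to transcription units (TUs) ranged from 5732780 to 9002746 per RNA-seq library and were 6993816 and 7245632 in the PRO-seq libraries. RNA-seq replicates 1 and 3 and replicates 2 and 4 were closer to each other (chi-square per degree of freedom 1.11 and 1.12) than the other RNA-seq pairs (1.74 to 2.11) and the PRO-seq pair (1.61). Whether each close pair came from the same RNA sample is not stated, so n = 4 may overstate the number of independent RNA-seq libraries. All 9 matched erythroid markers of K562 cells exceeded 1 TPM in RNA-seq. Of 7 matched markers of other cell types, 3 did so: PTPRC and VIM, which leukemia cells also express, and COL1A2 at 1.36 TPM, while KRT14, CD3E, COL1A1 and ALB lay between 0.0449 and 0.483 TPM.

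Of the 8 matched genes, 5 had at least 10 counts over the 6 libraries and were tested. The measure was the ratio of RNA-seq to PRO-seq reads per length, with a log2 ratio of 0 set at the median of 8733 mRNAs with over 10 TPM of nascent and over 1 TPM of steady-state RNA (the reference mRNA). The ratio was called above the reference mRNA for GNAS and SNRPN and below it for none of the 5 (edgeR quasi-likelihood test, Benjamini-Hochberg adjusted p under 0.05 over all TUs). For SNRPN the nascent reads came from only part of the TU, as described below. CDKN1C, MEG3 and MEST passed in neither direction. Among all 21621 TUs tested, 25.6% were called above the reference mRNA and 55.7% below it. The median log2 ratio was 0.95 over the 5 genes and -1.12 over all TUs tested, and 5 genes are too few to read a pattern from these counts. With the median of all tested mRNAs as the reference, 7180 TUs were above and 9463 below, in place of 5530 and 12046.

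Both assays placed GNAS first and CDKN1C second by TPM, with no overlap between libraries of the 2 genes. MEG3 and SNRPN came next in RNA-seq, with overlapping ranges, and the remaining 4 genes stayed under 0.6 TPM in each library. The plot of levels by library shows this order.

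**Figure D1:**
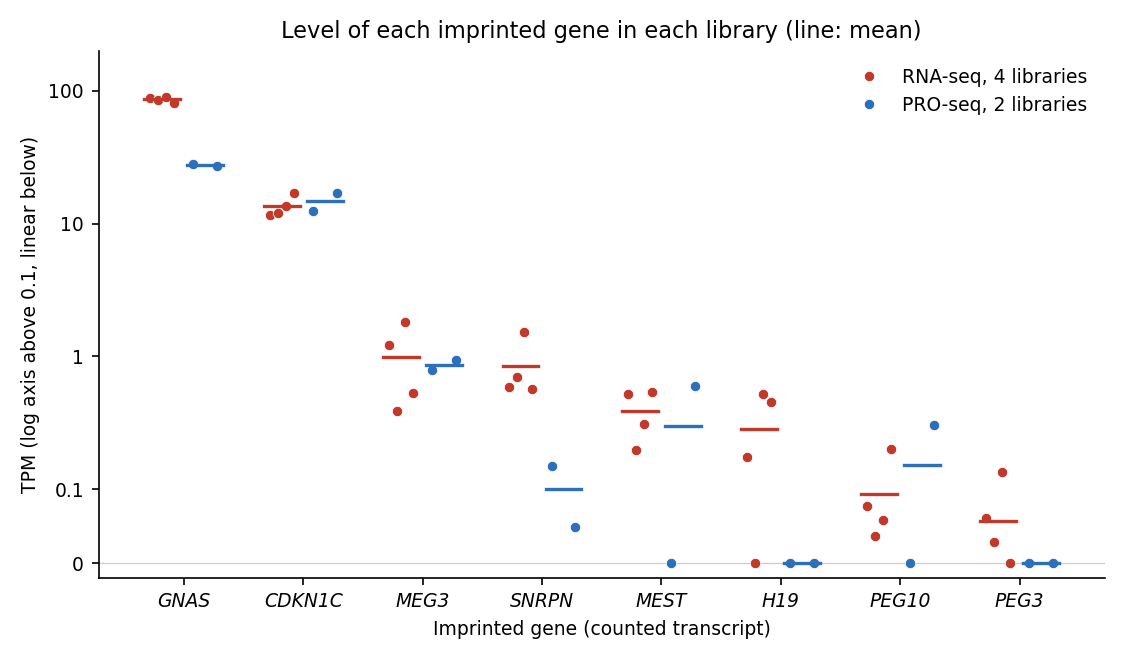
TPM of the 8 matched imprinted genes (y axis, logarithmic above 0.1 and linear below) in each of 4 RNA-seq libraries (red) and 2 PRO-seq libraries (blue), with lines at the means. GNAS lies between 81.5 and 89.9 TPM in RNA-seq and near 27 TPM in PRO-seq, CDKN1C near 14 TPM in both, and H19 and PEG3 at 0 in both PRO-seq libraries. All PRO-seq bases of PEG3 lie inside another counted TU of its strand, so its 0 holds no information.

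GNAS encodes the alpha subunit of the stimulatory G protein, which links hormone receptors to adenylyl cyclase, and is read from several promoters that differ in their imprint. The counted transcript (ENST00000313949, GRCh37 chr20:57414773-57486247, plus strand, 13 exons) held 889, 904, 605 and 630 counts in RNA-seq replicates 1 to 4 and 509 and 501 in the PRO-seq replicates. Per length these were 88.7, 85.4, 89.9 and 81.5 TPM (mean 86.4 ± 3.73, SD, n = 4) in RNA-seq. The PRO-seq levels were 27.9 and 26.97 TPM (mean 27.5 ± 0.681, SD, n = 2). All 4 RNA-seq libraries and both PRO-seq libraries were thus close to their group means, and GNAS was above 89.4% of mRNAs in RNA-seq and 65.2% in PRO-seq. The log2 ratio was 2.29 (SE 0.07, adjusted p = 1.3e-266 by edgeR), or 4.89-fold above the reference mRNA, with a 95% counting interval of 4.56 to 5.26. Taking each RNA-seq library with each PRO-seq library (8 pairs), the log2 ratio ran from 2.16 to 2.38. On CPM without length it was 0.72, but that value also carries the ratio of TU span to exon length and so is another quantity.

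What was counted for GNAS covers only part of the gene. The exons of the counted transcript made up 11.6% of the 22221 exon bases annotated for the gene. Of 77 annotated transcripts, 6 start within 500 bases of the counted start, and the median start lies 49509 bases downstream of it. PRO-seq reads were therefore averaged over a TU whose first 49509 bases lie upstream of that median start, and their part in the ratio was not tested. The promoter at the counted start and the promoter close to the median start are shown because they differ in place and in base composition. They are RefSeq sequences (GRCh38.p14, plus strand), from 250 bases before to 50 bases after a start, with the hexamer TGCCGC and its reverse complement GCGGCA in capitals wherever present.
GNAS, chr20:58839498-58839797, start 30 bases after the counted start: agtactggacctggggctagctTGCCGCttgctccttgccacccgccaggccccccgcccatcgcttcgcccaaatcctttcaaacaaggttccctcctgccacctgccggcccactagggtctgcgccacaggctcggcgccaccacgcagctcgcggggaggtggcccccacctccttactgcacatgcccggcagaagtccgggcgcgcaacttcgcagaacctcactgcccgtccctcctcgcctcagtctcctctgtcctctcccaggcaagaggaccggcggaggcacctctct
GNAS, chr20:58888930-58889229, start 49462 bases after the counted start: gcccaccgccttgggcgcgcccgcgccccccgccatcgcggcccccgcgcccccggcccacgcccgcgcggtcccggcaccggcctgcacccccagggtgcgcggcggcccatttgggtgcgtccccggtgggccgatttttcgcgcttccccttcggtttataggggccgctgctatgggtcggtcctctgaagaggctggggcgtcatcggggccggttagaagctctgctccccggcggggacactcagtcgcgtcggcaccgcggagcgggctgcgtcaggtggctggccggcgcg
The upstream promoter holds 21 CpG dinucleotides and 1 hexamer. The downstream promoter holds 43 CpG dinucleotides, more than 95.02% of 35116 promoters of the same length (median 14), and no hexamer. TGCCGC on either strand, overlaps included, occurred in 16.7% of those promoters, and a match is only a match of letters.

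GNAS-AS1, an antisense transcript that overlaps the GNAS start on the minus strand, had 7, 2, 7 and 5 RNA-seq counts against 89 and 87 in PRO-seq. Its log2 ratio was -2.37 (SE 0.31, edgeR adjusted p = 3.1e-14), below the reference mRNA, so the 2 TUs of this locus lay on opposite sides. The strand was kept in PRO-seq counting: 0 of 250 mRNAs lying wholly inside a TU of the opposite strand had no PRO-seq reads. For RNA-seq only 1 such mRNA was there to check, so whether its counting kept the strand is not settled.

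CDKN1C encodes an inhibitor of cyclin-dependent kinases expressed mainly from the maternal copy. The counted transcript (ENST00000414822, GRCh37 chr11:2904443-2907001, minus strand, 3 exons) had 88, 95, 69 and 98 RNA-seq counts, or 11.7, 11.96, 13.6 and 16.9 TPM (mean 13.5 ± 2.39, SD, n = 4). PRO-seq gave 5 and 7 counts, or 12.4 and 17.0 TPM (mean 14.7 ± 3.27, SD, n = 2), since only 1559 bases of this short TU were open to PRO-seq counting. The log2 ratio of 0.49 (SE 0.42, edgeR adjusted p = 0.27) was within the error, with a counting interval of 0.793-fold to 2.74-fold. The call depends on the length removed for PRO-seq: with 500 bp instead of 1000 bp per TU the log2 ratio was 0.84 (adjusted p = 0.048). It was 1.08 (adjusted p = 0.01) with all tested mRNAs as the reference and 3.98 on CPM without length.

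The other genes of this part of chromosome 11 split between both sides of the reference. CD81, a tetraspanin, reached 70.8 ± 1.85 TPM in RNA-seq (SD, n = 4) and a log2 ratio of 1.86 (SE 0.10, edgeR adjusted p = 8.3e-82). TSSC4 and NAP1L4, a nucleosome assembly protein, were also above it, by 1.35 and 1.36 on the log2 scale. KCNQ1OT1, the paternal noncoding RNA whose transcription silences the domain in cis, had 1813 and 1866 PRO-seq counts over its single exon of 91667 bases. Its 778, 833, 482 and 651 RNA-seq counts came to 2.19 ± 0.146 TPM (SD, n = 4) against 77.7 ± 0.527 TPM in PRO-seq (SD, n = 2), and its log2 ratio was -4.51 (SE 0.05). KCNQ1OT1 thus had the lowest ratio of the 11 TUs tested in these domains.

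OSBPL5 (-2.13), SLC22A18 (-0.92), SLC22A18AS (-3.92), KCNQ1 (-2.35) and PHLDA2 (-3.10), a maternally expressed growth suppressor, were below the reference mRNA on the same log2 scale, and ASCL2 (-1.54, adjusted p = 0.13) was not called. PHLDA2 spans only 1148 bases, with 5 and 3 PRO-seq counts, and its call was lost with 500 bp removed (-1.03, adjusted p = 0.12) and turned to above on CPM without length (2.69, adjusted p = 9.7e-09). The call of KCNQ1, which had 2 RNA-seq counts in all, was lost under DESeq2 (adjusted p = 0.084), with a replicate block (adjusted p = 0.057), with all tested mRNAs as the reference (adjusted p = 0.06) and without RNA-seq replicate 2 (adjusted p = 0.051). SLC22A18 also lost its call with that reference (-0.34).

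H19, a maternally expressed noncoding RNA, was near the limit of detection. Its counted transcript (ENST00000428066, GRCh37 chr11:2016404-2022936, minus strand, 5 exons) had 1, 0, 2 and 2 RNA-seq counts and none in either PRO-seq library. A PRO-seq count of 0 allows up to 1.04 TPM (3 counts over the group), and the RNA-seq level was at least 0.372 times that of the reference mRNA for this bound, which says nothing of either direction. H19 was not tested. Of its 31 annotated transcripts, 12 start within 500 bases of the counted start, and 42.8% of its exon bases were counted.

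MEG3 is the maternal noncoding RNA of the DLK1 domain. Its counted transcript (ENST00000556407, GRCh37 chr14:101245747-101295522, plus strand, 3 exons) had 3, 1, 3 and 1 RNA-seq counts, or 1.22, 0.386, 1.82 and 0.528 TPM, and 10 and 12 PRO-seq counts, or 0.793 and 0.933 TPM. The log2 ratio was 0.73 (SE 0.70, edgeR adjusted p = 0.32), with a counting interval of 0.645-fold to 3.91-fold. It turned to -2.25 (adjusted p = 0.00037) on CPM without length. In TPM, the RNA-seq libraries spread over a wider range than the PRO-seq libraries and enclosed them. Equal TPM in both assays is not a log2 ratio of 0, so this is no comparison with the reference mRNA. The counted exons hold 632 bases, or 2.72% of the 23224 exon bases of the gene, and 1 of 50 annotated transcripts starts within 500 bases of the counted start. The most upstream RefSeq start lies 46698 bases further on and is shown because most of the counted TU lies before it.
MEG3, GRCh38.p14 chr14:100825858-100826157, plus strand: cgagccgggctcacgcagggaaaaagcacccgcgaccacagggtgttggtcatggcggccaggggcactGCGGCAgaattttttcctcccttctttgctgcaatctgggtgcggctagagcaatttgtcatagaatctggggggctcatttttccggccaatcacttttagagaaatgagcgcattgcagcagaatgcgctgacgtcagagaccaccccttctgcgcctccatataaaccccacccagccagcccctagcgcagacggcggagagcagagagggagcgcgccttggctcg
It holds 19 CpG dinucleotides and 1 GCGGCA. An intron of the counted TU holds the hairpin of MIR2392, whose mature sequence (RefSeq, GRCh38.p14 chr14:100814551-100814570) has its seed, bases 2 to 8, in capitals here.
hsa-miR-2392: uAGGAUGGgggugagaggug

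The counted transcript of DLK1, the paternally expressed membrane protein of this domain, was far more abundant than that of MEG3. The 2 transcripts hold 88.8% of the exon bases of DLK1 and 2.72% of those of MEG3, so the genes as wholes were not compared. DLK1 had 1434, 1460, 1001 and 1073 RNA-seq counts (78.7 ± 2.70 TPM, SD, n = 4) and 253 and 298 PRO-seq counts (102 ± 10.4 TPM, SD, n = 2). Its log2 ratio was 0.26 (SE 0.07, edgeR adjusted p = 0.00064), and 0.17 without PRO-seq replicate 1 (adjusted p = 0.081). MEG8, a second noncoding RNA of the domain, was above the reference mRNA (0.91, adjusted p = 0.011), a call lost under DESeq2 (adjusted p = 0.073), without RNA-seq replicate 2 (adjusted p = 0.13) and without PRO-seq replicate 2 (adjusted p = 0.12), and turned to -0.65 on CPM without length. The counted transcript of MEG8 holds 9.445% of the exon bases of the gene. RTL1, a retrotransposon-derived gene read from the other strand, had 1 RNA-seq count against 11 in PRO-seq (-4.78, adjusted p = 6.3e-06).

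SNRPN encodes a Sm protein of the spliceosome and is read from the paternal copy. Its counted transcript (ENST00000400100, GRCh37 chr15:25068794-25223729, plus strand, 13 exons) had 4, 5, 7 and 3 RNA-seq counts, or 0.587, 0.696, 1.53 and 0.572 TPM. PRO-seq gave 6 and 2 counts, or 0.151 and 0.0493 TPM. The log2 ratio was 3.55 (SE 0.65, edgeR adjusted p = 1e-07), with a counting interval of 5.21-fold to 32.9-fold around the ratio of summed counts of 12.5. RNA-seq replicate 3 stood above the other libraries, and without it the log2 ratio was 3.20 (adjusted p = 5.5e-05). It was 4.395 without PRO-seq replicate 1 and 2.95 without PRO-seq replicate 2, and the call was lost on CPM without length (0.38, adjusted p = 0.59).

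This ratio rests on the bases that SNRPN does not share. In its default mode HTSeq gives a read in bases shared by 2 TUs to neither. Its setting was not stated, but in these files 163 of 174 mRNAs lying wholly inside another TU of their strand had 0 PRO-seq counts despite at least 100 RNA-seq counts. SNRPN shares its span with SNURF and 3 unnamed TUs. Only 43079 of its 153936 PRO-seq bases (28.0%) are its own, a stretch at chr15:25157572-25200650, and 47.5% of its exon bases. Over unshared bases alone the log2 ratio was 2.81 (SE 0.65, edgeR adjusted p = 2.9e-05). Nearly all of that stretch lies before the RefSeq start 131340 bases after the counted start. Both ratios thus leave out nearly all nascent reads downstream of that start, and their part was not tested. SNURF had 0 counts in every library, but only 30 of its 796 exon bases and 0% of its PRO-seq bases are its own. These counts of 0 hold no information on its expression. The RefSeq start 131340 bases after the counted start, near the end of that stretch, is shown because the gene downstream of it was closed to PRO-seq counting.
SNRPN, GRCh38.p14 chr15:24954737-24955036, plus strand: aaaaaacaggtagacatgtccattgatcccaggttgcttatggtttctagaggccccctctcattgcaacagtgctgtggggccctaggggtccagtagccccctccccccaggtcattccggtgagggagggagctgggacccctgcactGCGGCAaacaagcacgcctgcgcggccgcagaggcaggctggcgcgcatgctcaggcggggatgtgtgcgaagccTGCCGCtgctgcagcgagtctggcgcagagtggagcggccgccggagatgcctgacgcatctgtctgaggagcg
It holds 18 CpG dinucleotides and 2 hexamers, 1 on each strand.

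UBE3A, MAGEL2, IPW and PWAR6 of the SNRPN domain had no matched transcript, so their RNA was not measured. The other counted transcripts of the domain were low in RNA except that of MKRN3, an E3 ubiquitin ligase, with 12.1 ± 1.47 TPM in RNA-seq (SD, n = 4). MKRN3 was below the reference mRNA (-0.53, edgeR adjusted p = 1.2e-07), but its log2 ratio was 0.06 with all tested mRNAs as the reference. ATP10A, a phospholipid flippase, was below it (-2.73, adjusted p = 2e-06), and SNHG14 (-1.70, adjusted p = 0.063) was not called. The counted transcript of SNHG14 holds only 4.97% of the exon bases of the gene. PWRN1 had no RNA-seq counts and 24 PRO-seq counts, which allows a ratio of up to 1.20. PWAR5 had no PRO-seq bases of its own, so no ratio is given.

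**Figure D2:**
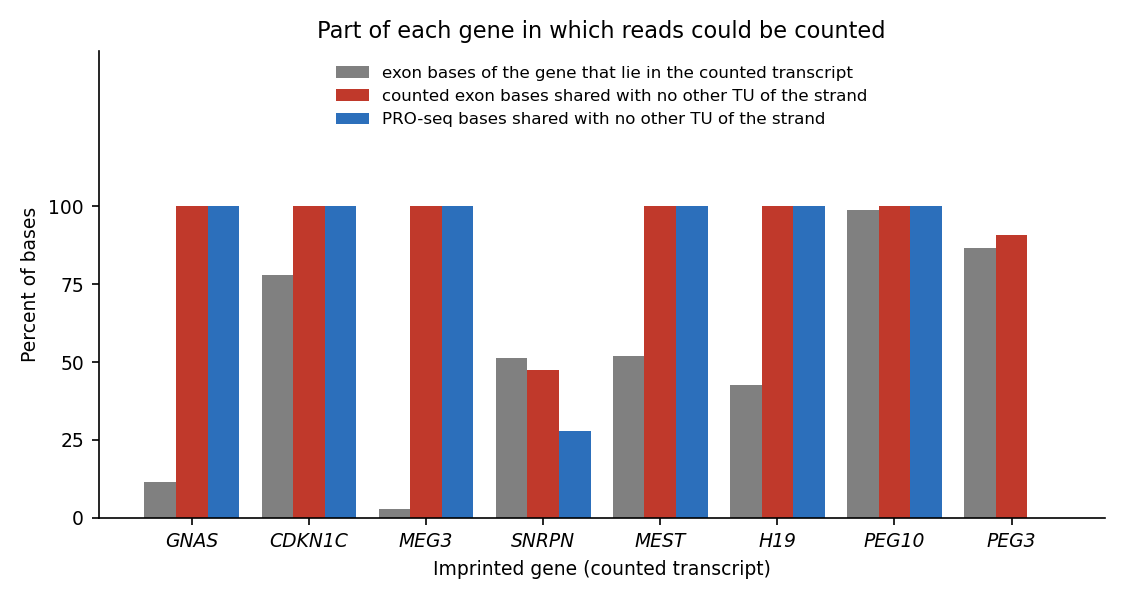
Percent of bases (y axis) for the 8 matched imprinted genes: exon bases of the gene that lie in the counted transcript (grey), counted exon bases shared with no other counted TU of the strand (red) and the same share of PRO-seq bases (blue). MEG3 and GNAS have 2.72% and 11.6% of their exon bases counted, SNRPN has 28.0% of its PRO-seq bases to itself and PEG3 has none.

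MEST encodes an enzyme of the alpha/beta-hydrolase fold and is expressed from the paternal copy. Its counted transcript (ENST00000427521, GRCh37 chr7:130126177-130146306, plus strand, 11 exons) had 5, 2, 2 and 4 RNA-seq counts, or 0.520, 0.197, 0.310 and 0.540 TPM. One PRO-seq library had no count and the other had 3 (0.595 TPM). The log2 ratio of 0.95 (SE 0.94, edgeR adjusted p = 0.34) had a counting interval of 0.550-fold to 11.0-fold, so no difference was detectable at this depth. It was 0.03 without PRO-seq replicate 1, and without PRO-seq replicate 2 no nascent reads remained.

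Of 17 annotated MEST transcripts, 4 start within 500 bases of the counted start, and the median start lies 5749 bases downstream. The RefSeq promoters at these 2 places are shown for their difference in CpG content and hexamers.
MEST, GRCh38.p14 chr7:130486097-130486396, plus strand, start 11 bases after the counted start: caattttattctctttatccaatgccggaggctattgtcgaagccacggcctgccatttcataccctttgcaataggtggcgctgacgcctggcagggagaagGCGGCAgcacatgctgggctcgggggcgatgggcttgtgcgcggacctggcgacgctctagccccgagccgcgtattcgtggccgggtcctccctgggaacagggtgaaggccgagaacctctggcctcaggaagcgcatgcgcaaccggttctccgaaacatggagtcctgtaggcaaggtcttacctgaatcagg
MEST, GRCh38.p14 chr7:130491835-130492134, plus strand, start 5749 bases after the counted start: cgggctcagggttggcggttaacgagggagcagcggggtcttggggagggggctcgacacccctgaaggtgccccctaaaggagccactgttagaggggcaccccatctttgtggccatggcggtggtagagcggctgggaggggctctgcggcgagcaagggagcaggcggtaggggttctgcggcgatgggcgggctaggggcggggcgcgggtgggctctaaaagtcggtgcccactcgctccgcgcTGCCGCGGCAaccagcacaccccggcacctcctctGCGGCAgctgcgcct
The upstream promoter holds 22 CpG dinucleotides and 1 hexamer. The downstream promoter holds 25 and 3, and 2 of its hexamers overlap on opposite strands. An intron of MEST hosts MIR335, whose mature sequences (RefSeq, GRCh38.p14, starting at chr7:130496126-130496148 and chr7:130496162-130496183) have different seeds.
hsa-miR-335-5p: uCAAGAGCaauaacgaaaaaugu
hsa-miR-335-3p: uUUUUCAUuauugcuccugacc

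The neighbours of MEST stood far from the reference mRNA on either side. COPG2, a subunit of the COPI vesicle coat, had 153 ± 5.32 TPM in RNA-seq (SD, n = 4) and 25.8 ± 0.206 TPM in PRO-seq (SD, n = 2), a log2 ratio of 3.20 (SE 0.06) that turned to -0.50 on CPM without length. MESTIT1, a transcript antisense to the start of MEST, had 2 RNA-seq counts and 12 PRO-seq counts, a log2 ratio of -6.26 (SE 0.94, edgeR adjusted p = 5.8e-11). They were the highest and the lowest of the genes taken here as other imprinted genes, among those with counts in both assays and PRO-seq bases of their own. DIRAS3, a Ras-like growth inhibitor with 201 ± 0.912 TPM in RNA-seq (SD, n = 4), followed at 2.08, then CD81.

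**Figure D3:**
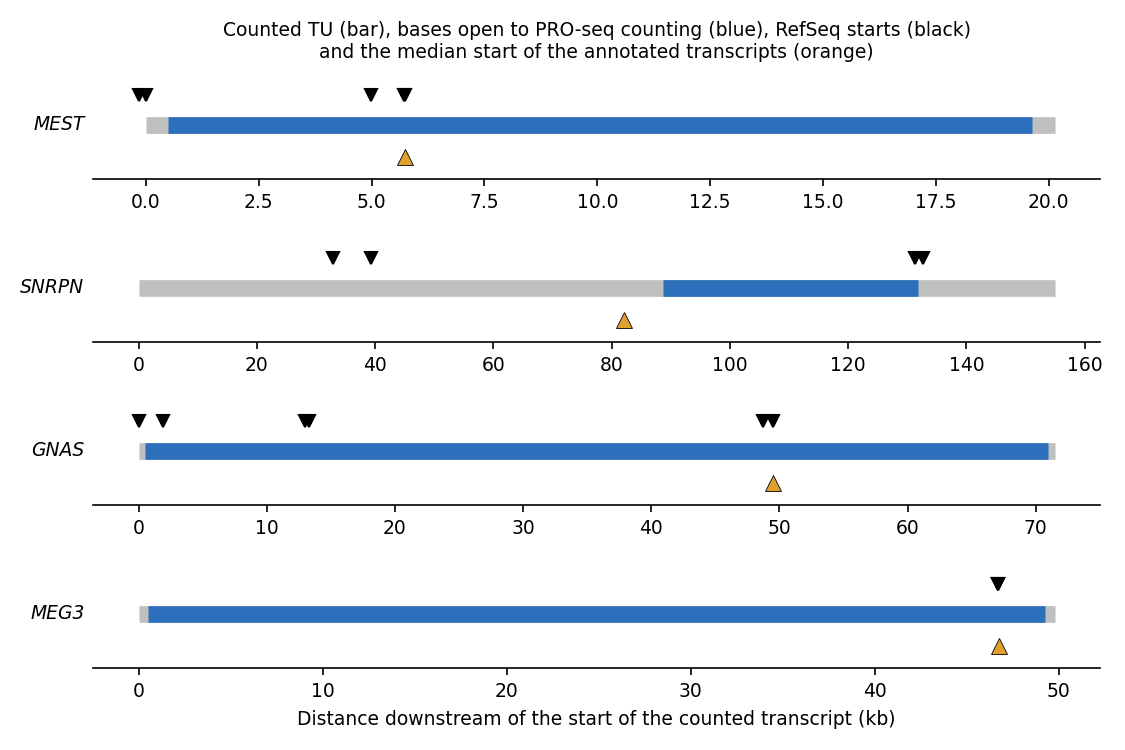
Counted TUs of MEST, SNRPN, GNAS and MEG3 (grey bars) by distance from the counted start in kb (x axis), with bases open to PRO-seq counting in blue, RefSeq starts as black triangles and the median start of the annotated transcripts in orange. The median start lies 5749 bases into MEST, 49509 into GNAS and 46750 into MEG3, and the bases open to counting in SNRPN end near its RefSeq start at 131340.

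PEG10 and PEG3 could not be tested. PEG10, a paternally expressed gene derived from a retrotransposon (ENST00000482108, GRCh37 chr7:94285637-94299007, plus strand, 2 exons), had 2, 1, 1 and 4 RNA-seq counts and 0 and 1 PRO-seq counts. The ratio of its summed counts per length was 0.893 of the reference mRNA, with a counting interval of 0.120 to 39.6. PEG3, a paternally expressed zinc finger gene (ENST00000648694, GRCh37 chr19:57321445-57352094, minus strand, 10 exons), had 2, 1, 3 and 0 RNA-seq counts, at most 0.136 TPM. All 29650 of its PRO-seq bases lie inside the TU of ZIM2, and its 2 PRO-seq counts of 0 hold no information on its transcription.

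ZIM2 itself had 0 RNA-seq counts and 6 and 7 PRO-seq counts over the 54.5% of its PRO-seq bases that are its own, at least 2.35-fold below the reference mRNA. Its call was lost under DESeq2 (adjusted p = 0.14) and with a replicate block (adjusted p = 0.11). ZNF264, a zinc finger gene of the same cluster, had 2.35 ± 0.228 TPM in RNA-seq (SD, n = 4) and was below the reference mRNA (-1.77, SE 0.15), with 0.11 on CPM without length. Near PEG10, PON2, a paraoxonase, was above the reference mRNA (0.42, edgeR adjusted p = 0.00069) but below it on CPM without length (-0.34). PON3, with no RNA-seq counts and 15 in PRO-seq, was at least 2.81-fold below, a call lost under DESeq2 (adjusted p = 0.088) and with a replicate block (adjusted p = 0.075). SGCE had 0 RNA-seq and 19 PRO-seq counts, for which the bound of 1.02 times the reference mRNA gives no direction, and its edgeR call below (adjusted p = 0.047) was lost when any RNA-seq library or PRO-seq replicate 2 was left out (adjusted p from 0.077 to 0.14). The counted transcript of SGCE holds 4.33% of the exon bases of the gene. PPP1R9A (-1.62, edgeR adjusted p = 0.037) lost its call under DESeq2, with a replicate block, with all tested mRNAs as the reference and without RNA-seq replicate 2, 3 or 4 or PRO-seq replicate 1 (adjusted p from 0.057 to 0.28).

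**Figure D4:**
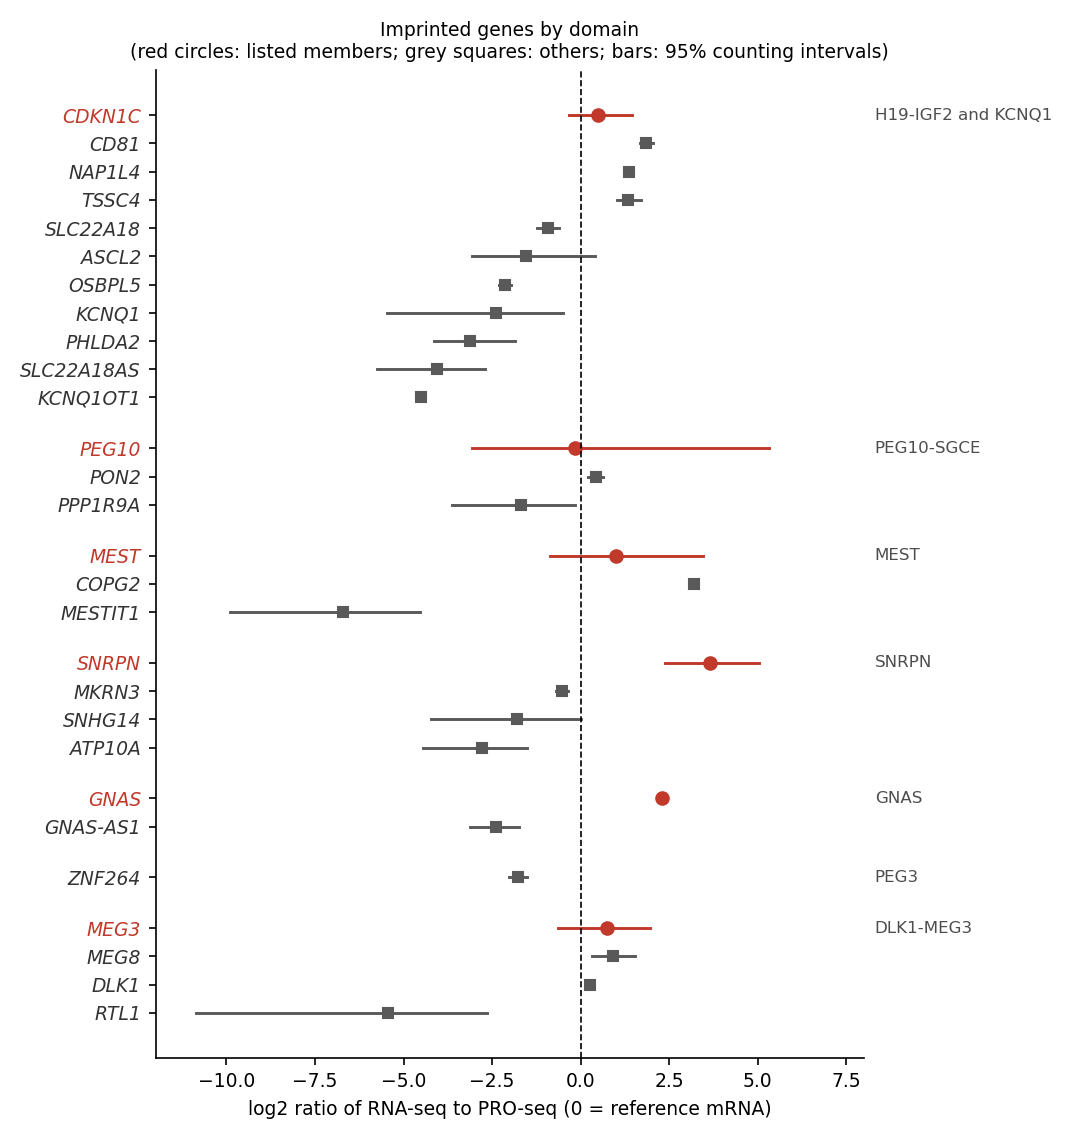
Log2 ratio of RNA-seq to PRO-seq from summed counts per length (x axis, 0 at the reference mRNA) for imprinted genes of the listed genes' domains with counts in both assays; red circles are the listed genes, grey squares the others, and bars 95% counting intervals, which are narrower than the symbol for deep genes. GNAS (2.29) and SNRPN lie right of 0, the intervals of CDKN1C, MEG3, MEST and PEG10 include 0, and MESTIT1, RTL1 and KCNQ1OT1 lie furthest left.

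The list of other imprinted genes holds 81 genes, and whether each is imprinted in K562 cells was not measured. Beyond the listed genes, 70 of these 81 were matched and 47 tested. Among these the 3 highest fitted ratios belonged to NAA60, HYMAI and PWAR5, which have RNA-seq counts and no PRO-seq bases of their own, and no ratio is given for them. Of the 44 tested genes with bases of their own in both assays, 10 were above the reference mRNA, 25 below and 9 uncalled, with a median log2 ratio of -1.60. The shares of 22.7% above and 56.8% below were near those of all TUs (25.6% and 55.7%), so they are not a result about imprinted genes. The plot of steady-state RNA against nascent transcription shows the same spread.

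**Figure D5:**
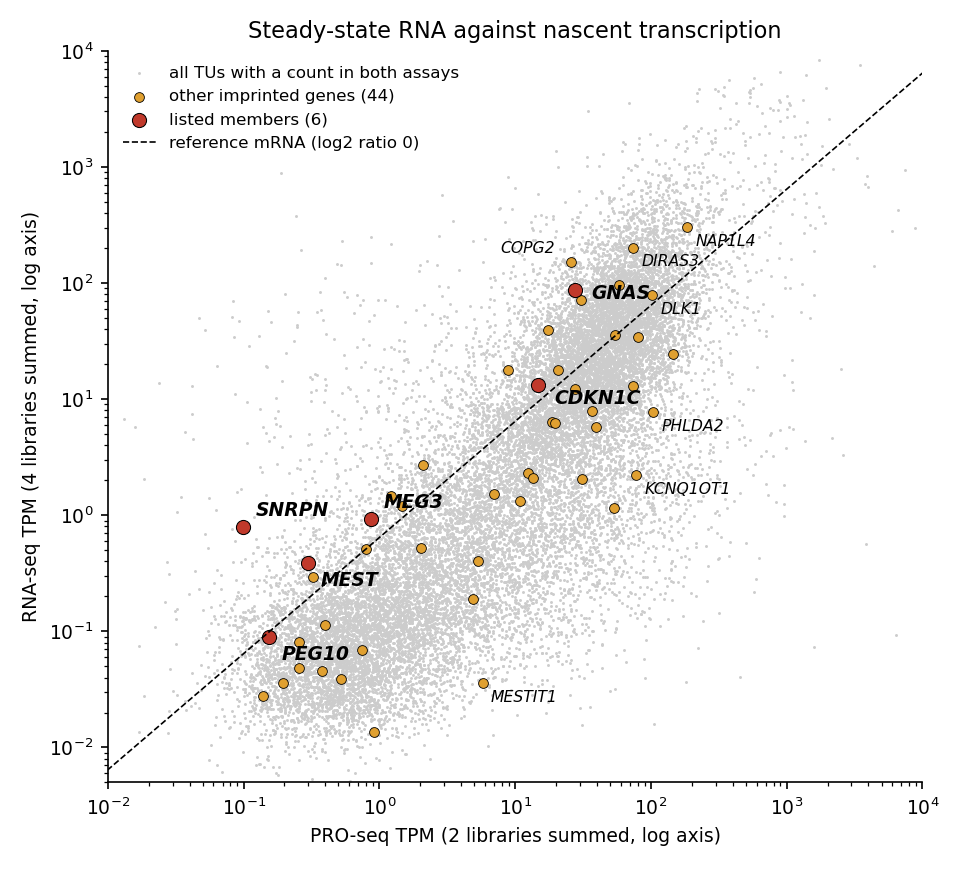
RNA-seq TPM (y axis) against PRO-seq TPM (x axis), both logarithmic, from summed counts of 4 RNA-seq and 2 PRO-seq libraries for TUs with a count in both (grey), other imprinted genes (orange) and the listed genes (red), with the reference mRNA as a dashed line. GNAS and SNRPN lie above the line, CDKN1C, MEG3 and MEST are close to it, and KCNQ1OT1 lies far below it with a PRO-seq level of 77.7 TPM and an RNA-seq level of 2.19 TPM.

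Relatives of the listed genes that are not known as imprinted lay on both sides of the reference mRNA. All 19 were tested, 17 had bases of their own in both assays, and 5 of these were above it and 10 below (median -0.85). The shares of 29.4% and 58.8% were near those of all TUs (25.6% and 55.7%). SNRPB, which encodes the Sm proteins that SNRPN resembles, had 852 ± 39.9 TPM in RNA-seq (SD, n = 4) against 140 ± 9.39 TPM in PRO-seq (SD, n = 2), a log2 ratio of 3.24 (SE 0.06). Its RNA-seq level was far above that of the counted SNRPN transcript, at 0.846 ± 0.459 TPM (SD, n = 4). Of the counted exon bases, 47.5% of those of SNRPN and 85.95% of those of SNRPB are their own. The 2 genes as wholes were therefore not compared. Of the 2 other cyclin-dependent kinase inhibitors of the CDKN1C family, CDKN1A was below the reference mRNA (-0.52) and CDKN1B above (0.38). The call of CDKN1B was lost under DESeq2 (adjusted p = 0.084), with a replicate block (adjusted p = 0.15), without RNA-seq replicate 4 (adjusted p = 0.068) and without PRO-seq replicate 1 (adjusted p = 0.23), and on CPM without length (0.08). The counted transcript of CDKN1B holds 4.9% of the exon bases of the gene. CDKN1A turned to 0.07 with all tested mRNAs as the reference and to 0.45 on CPM without length.

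Among G protein alpha subunits related to GNAS, GNAI2 (2.55), GNAI3 (0.66) and GNA11 (0.93) were above the reference mRNA, and GNAQ (-0.92), GNA12 (-0.96), GNA13 (-0.85) and GNAL (-4.17) were below it. GNAI1 had 0 RNA-seq and 47 PRO-seq counts, at least 1.31-fold below, a call lost under DESeq2 (adjusted p = 0.26), with a replicate block (adjusted p = 0.13) and with all tested mRNAs as the reference (adjusted p = 0.05). The counted transcript holds 9.28% of the exon bases of GNAI1, so the RNA-seq count of 0 is not that of the whole gene. Of the PEG10 relatives, RTL8A was below (-2.51), a call lost with 500 bp removed (adjusted p = 0.094) and turned on CPM without length (2.33), LDOC1 (-1.25) and RTL8C (0.88) were uncalled, and RTL10 had too few PRO-seq bases of its own for a ratio. NSMCE3, a MAGE family relative of NDN, had none. IGF1, the relative of IGF2, was below (-0.64, but -0.05 and not called with all tested mRNAs as the reference), and so were the nuclear noncoding RNAs MALAT1 (-2.35) and NEAT1 (-5.92), compared here with H19 and MEG3 as long noncoding RNAs. MALAT1 turned to 0.84 on CPM without length.

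IGF2 itself was not analysed here, but its receptors and binding proteins were. IGF2R, the receptor that clears IGF2, had 34.1 ± 2.80 TPM in RNA-seq (SD, n = 4) and a log2 ratio of -0.60. IGF1R (-1.15), INSR (-3.21), IGFBP4 (-0.60) and IGFBP5 (-4.31) were also below the reference mRNA, while IGFBP2 was above it (3.24, edgeR adjusted p = 9.8e-08) and IGFBP6 (2.00, adjusted p = 0.12) was uncalled. The 1 of 7 above and 5 of 7 below (14.3% and 71.4%) are too few to set against all TUs. With all tested mRNAs as the reference, IGF2R and IGFBP4 were at -0.02 and no longer called, and IGFBP4 was at 0.01 on CPM without length. IGFBP1 and IGFBP3 had 1 and 4 counts and were not tested.

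Of 10 factors that maintain imprints, 9 were tested, with 5 above the reference mRNA and 4 below (55.6% and 44.4%, against 25.6% and 55.7% of all TUs), and 9 genes are too few to read a pattern from. DPPA3, with 1 count, was not tested. TRIM28, the corepressor that zinc finger proteins recruit to imprinted regions, had 394 ± 21.1 TPM in RNA-seq (SD, n = 4) and a log2 ratio of 1.73 (SE 0.06). SMCHD1, a chromatin protein of the SMC family, reached 145 ± 6.09 TPM (SD, n = 4) and 1.34. DNMT1, the maintenance DNA methyltransferase, was below at -0.32 but above at 0.27 with all tested mRNAs as the reference. ZFP57 had 4, 0, 2 and 0 RNA-seq counts and 4 in each PRO-seq library, and its call below the reference mRNA (-2.48, edgeR adjusted p = 0.0064) was lost without either PRO-seq library (adjusted p = 0.057 and 0.054), with a replicate block (adjusted p = 0.092) and on CPM without length (adjusted p = 0.17).

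The mRNAs closest to the 3 listed genes of highest RNA-seq level were found by the Euclidean distance of log2(TPM + 0.1) over the 6 libraries. For GNAS they were TARBP2 (0.118) and WDR70 (0.164), for CDKN1C SFI1 (0.457) and URGCP (0.464), and for MEG3 CRISP3 (1.04) and POU2F3 (1.06). The distances are descriptions of likeness in level and carry no test.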

How the data were processed

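Libraries of K562 cells were grouped by the assay in their labels (PRO-seq, n = 2, and rRNA-depleted RNA-seq, n = 4). The authors deposited, per library, raw, not normalized read counts for each transcript. By the study's methods and the submitters' processing notes, cutadapt trimmed the reads, HISAT2 aligned them to GRCh38, and HTSeq counted them over GENCODE transcripts, with 500 bp left out at both TU ends in PRO-seq. The sample labels mention 500 bp without naming an end. The sources used here state no versions, strand setting or overlap mode. The files hold no coordinates.

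Transcripts were matched by identifier to GENCODE v44 lifted to GRCh37 (37339 of 42371, 88.1%), which supplied symbols, lengths and coordinates. These lengths may not be those of the authors' annotation. The levels and ratios of a gene are those of 1 counted transcript, which may hold only a small part of its exon bases. Rows naming no TU were left out (66.5% to 68.6% of RNA-seq records and 86.5% and 88.6% of PRO-seq records). RNA-seq TPM was computed over exon length, and PRO-seq TPM over the TU span less 1000 bp. Each TU with at least 10 counts over the 6 libraries was tested by the quasi-likelihood test of edgeR 4.0.16 in R 4.3.3, with TMM normalization, offsets for length centred on the reference mRNA, and Benjamini-Hochberg adjustment over 21621 TUs. Bounds for a count of 0 used 3 counts over the group. The 95% intervals are exact intervals of the summed counts and, like the bounds, cover counting error only, since without molecular identifiers a read is not a separate molecule. Bases shared by TUs were found with bedtools (version 2.31.1). DESeq2 (version 1.42.0) was an alternative, and the steps were tested on simulated data. Python 3.11.15 with pandas, numpy and scipy was used for the other steps. RefSeq promoters (GRCh38.p14) were placed relative to the counted start by matching their sequence in GRCh37. RefSeq promoters of PEG10, CDKN1C, IGF2 and PEG3 are not printed.

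The listed genes and the other lists were chosen with earlier results of these data known. The genes named are all listed genes, the other imprinted genes of their domains with at least 10 counts, the 3 highest and 3 lowest ratios of the other imprinted genes tested, all tested relatives and IGF2 partners, and 2 to 4 maintenance factors of high RNA-seq count. ZFP57 was named in addition, after its values were seen.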

Additional observations from a re-analysis of the deposited data

Results flagged for a closer look

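In the 4 RNA-seq libraries, 3 of 68 listed and named genes with at least 10 RNA-seq counts had 1 library far from the others by Dixon's test, near the 1 in 20 that chance gives. For SNRPN, replicate 3 stood at 1.27 CPM (7 counts) against 0.473 to 0.578 CPM in the other libraries. For PHLDA2, replicate 1 stood at 2.45 CPM against 3.62 to 3.81 CPM. For OSBPL5, replicate 4 stood at 9.77 CPM against 10.8 to 10.9 CPM.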

How the results depend on the processing

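The ratios of the listed genes were recomputed under 18 alternatives, or fewer where a stricter filter removed the gene. GNAS stayed above the reference mRNA in all of them, with log2 ratios from 0.72 (CPM without length) to 2.88 (median of all tested mRNAs as the reference), and SNRPN in all but 1. All alternatives kept the same counted transcripts, so they do not show how the ratios depend on the transcript counted. Without length, on CPM, SNRPN was no longer called (0.38, adjusted p = 0.59), CDKN1C was above the reference mRNA (3.98) and MEG3 turned to below it (-2.25, adjusted p = 0.00037). Values on CPM without length also carry the ratio of TU span to exon length, so they do not measure the same quantity as the main ratio. CDKN1C also passed with 500 bp removed for PRO-seq (0.84) and with the median of all tested mRNAs as the reference (1.08). The median tested mRNA lies at -0.57 on the main scale. With 1 library left out at a time, log2 ratios ranged from 2.25 to 2.33 for GNAS, from 2.95 to 4.395 for SNRPN, from 0.30 to 0.73 for CDKN1C, from 0.37 to 1.06 for MEG3 and from 0.03 to 4.73 for MEST, the last without any PRO-seq count left. None of these changed a call.

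The count of TUs above the reference mRNA was 3332 when a 2-fold difference was tested, and that below it was 5066 among the 10053 TUs past the half-life thresholds, where fewer TUs were tested. Leaving out 1 library gave 5218 to 5487 above and 10742 to 11745 below. With the replicate number as a block, 5243 TUs were above and 10213 below. The numbers did not pair the libraries: the difference of replicates 1 and 2 in RNA-seq and that in PRO-seq correlated with r = -0.014 over 13803 TUs. The block changed no call of a listed gene (GNAS 2.30, SNRPN 3.26 with adjusted p = 0.0038, CDKN1C 0.32, MEG3 0.50, MEST 0.84) and ended 8 of the 54 calls among the other imprinted genes described, the relatives, the IGF2 partners and the maintenance factors, which include CTCF, SETDB1 and ARID4A. Of the same 54, DESeq2 ended 7 and a tested 2-fold difference 22. The median of all tested mRNAs as the reference ended 8 and turned 3 (MKRN3, CDKN1A and DNMT1), and CPM without length ended 2 and turned 10 (PHLDA2, PON2, COPG2, ZNF264, MEG8, CDKN1A, RTL8A, MALAT1, IGFBP4 and CTCF).

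Lengths over unshared bases and the summing of the 2 close pairs of RNA-seq libraries were chosen after seeing the data, and neither changed a call of a listed gene. Of 72 alternative TPM levels, 70 moved by less than 1 SD. Leaving out 1 library can hardly move a level by more than that, so this count does not measure stability. The 2 that moved came with 500 bp removed, where the PRO-seq level of GNAS was 33.0 TPM and that of MEG3 1.03 TPM. Fewer than 30 counts in each assay limit every statement on MEST, MEG3, SNRPN, PEG10, H19 and PEG3.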
